A study of Mus musculus with 4 samples.

Results

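The 8 genes described here write, maintain or erase DNA methylation, or write the histone mark that works beside it: *Dnmt1*, *Uhrf1*, *Dnmt3a*, *Dnmt3b*, *Tet1*, *Tet2*, *Tet3* and *Setdb1*. They were taken by gene name from a deposited table of 39186 genes, each name matched 1 row, and all 8 passed the filter on low values. RNA was sequenced from mouse fetal liver LSK cells of strain C57BL/6, a sorted fraction (lineage-negative, Sca-1 and c-Kit positive) rich in hematopoietic stem and progenitor cells, with 2 *Pich*-KO and 2 *Pich*-WT samples. The comparison asks how the transcriptome of these progenitors differs when PICH, a DNA translocase of mitosis that binds ultrafine anaphase bridges, is lost. *Pich*-KO animals carry a small TALEN-made deletion at the start of the second exon of the X-linked *Pich* gene, listed as *Ercc6l*, in every cell of the body, and *Pich*-WT animals carry the normal gene. The labels give neither the age nor the sex of the embryos, nor do they say whether the samples of a group came from separate embryos or pools, so the p-values measure the spread between these samples, which may be technical.

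Methylated cytosine in mammals lies mostly in CpG dinucleotides, where it is laid down by the de novo enzymes DNMT3A and DNMT3B and copied to the new strand at replication by DNMT1, which UHRF1 brings to hemimethylated sites. TET1, TET2 and TET3 oxidise the methyl group in reactions that use iron and 2-oxoglutarate, after which it can be lost by dilution or by base excision repair. SETDB1 methylates lysine 9 of histone H3 and silences retroelements together with TRIM28, a layer of repression that overlaps with DNA methylation. In blood, loss-of-function mutations of *Dnmt3a* and *Tet2* are well known for expanding stem cell clones, and *Dnmt1* and *Setdb1* are needed to sustain hematopoietic stem cells.

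Depth ranged from 14703215 to 20933919 reads on genes per sample. That left a counting error of 0.964% to 7.27% on each value of the 8 members, counting error only. Genes named below with fewer reads have a larger one, such as *Bhmt* with 9 and 6 reads in *Pich*-KO. The allele leaves *Ercc6l* transcripts in the counts, at 1142 and 1232 normalized counts in *Pich*-KO against 772 and 661 in *Pich*-WT, so the mRNA does not check the labels. *Pich*-WT sample 2 had 0 reads on 4 Y-linked genes and 699 on *Xist*, while the other 3 samples had 1607 to 2848 and 4 to 13, and all 8 members are autosomal. RNA of other cell types differed between the groups, beside 9.6% of all genes tested that were called lower. All 12 macrophage markers were lower in *Pich*-KO, where they took 0.0509% and 0.0435% of reads against 0.346% and 0.373% in *Pich*-WT. The erythroid markers, 10 of 11 of which were lower, took 0.214% and 0.227% against 1.23% and 0.911%, and the 6 endothelial markers, all lower, took 0.0144% and 0.00867% against 0.173% and 0.122%. Of 8 hepatoblast markers 5 were lower, and of 5 B cell markers 0 passed by limma, with 1 lower at an unadjusted p under 0.05 and 1 lower by edgeR. Among the macrophage, erythroid and endothelial markers *Vsig4* was the one at 0 in any sample, *Pich*-KO sample 2. The stem cell gate itself was visible in all 4 samples through *Kit* (2328 to 4447 normalized counts) and *Ly6a*, which encodes Sca-1 (901 to 3586). In bulk RNA, fewer cells of a type and less RNA per cell cannot be told apart, and the part that these other cells had in the members' values was not tested.

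Of the 8 members, 3 rose in *Pich*-KO LSK cells, 0 fell and 5 did not pass the test. The 3 were *Dnmt1*, *Uhrf1* and *Tet2*, which stood 1.60-fold, 1.56-fold and 2.99-fold above *Pich*-WT. The test was limma on log2(normalized count + 1), fitted to all 32428 genes whose mean reached 1, with Benjamini-Hochberg adjustment and a threshold of 0.05. The added 1 pulls the fold changes of weakly expressed genes towards 0. At an unadjusted p under 0.05 by limma 4 members were higher and 0 lower, and edgeR and DESeq2 called 0 lower too. Over all genes tested 7.58% were called higher and 9.6% lower. The median log2 fold change was 0.28 over the 8 members, 6 of which were positive, and 0.02 over all genes tested. In 5 members both *Pich*-KO samples lay above both *Pich*-WT samples, in 0 they lay below, and in 3 the groups overlapped. The background of these counts was 28.9% of genes with *Pich*-KO above and 27.2% with *Pich*-KO below. No exact permutation of 2 against 2 samples gives a two-sided p under 0.333 for a single gene, and the adjusted p-values below therefore depend on the variance estimate that limma borrows from all genes. With a single prior variance in place of one that follows the mean, none of the 8 members passed (adjusted p = 0.191 for *Dnmt1*, 0.207 for *Uhrf1* and 0.170 for *Tet2*, limma). With any 1 of the 4 samples left out, 0 of the 8 members passed, although the log2 fold changes of *Dnmt1*, *Uhrf1* and *Tet2* kept to 0.65 to 0.70, 0.60 to 0.69 and 1.23 to 1.93, with adjusted p of 0.0708 to 0.302 by limma.

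**Figure D1:**
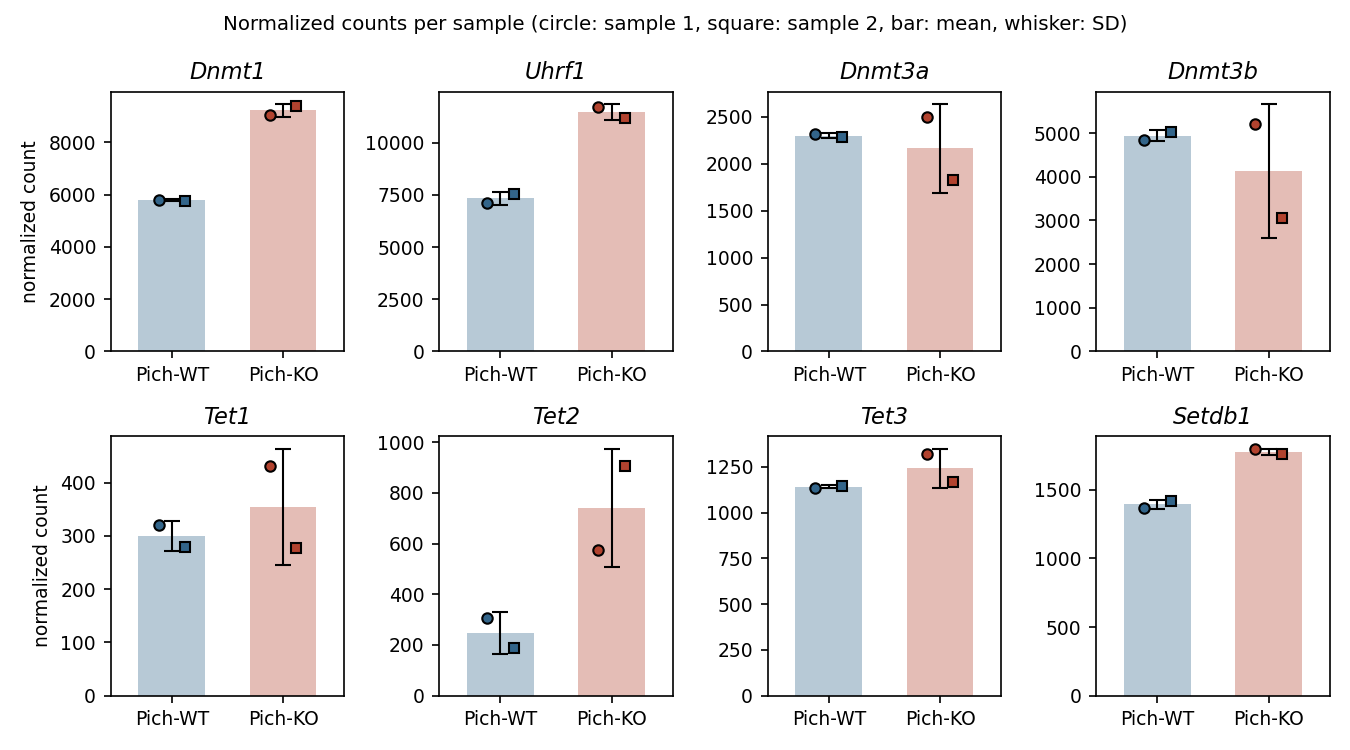
Normalized counts (y axis, from 0) of the 8 members in *Pich*-WT (blue) and *Pich*-KO (red) samples, with circles for sample 1, squares for sample 2, bars for the mean and whiskers for the SD (n = 2). The *Pich*-KO points of *Dnmt1*, *Uhrf1* and *Tet2* lie well above the *Pich*-WT points, while those of *Dnmt3a*, *Dnmt3b* and *Tet1* lie on both sides of them.

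*Dnmt1* (ENSMUSG00000004099, chr9:20907209-20959888, minus strand, GRCm38) encodes the maintenance methyltransferase. Its normalized counts were 9060 and 9392 in *Pich*-KO samples 1 and 2 and 5807 and 5753 in *Pich*-WT samples 1 and 2. Both *Pich*-KO samples were high, the groups were far apart, and the higher sample of a group was 1.04 times the lower in *Pich*-KO and 1.01 times in *Pich*-WT. The mean was 9226 ± 234 (SD, n = 2) against 5780 ± 38.4 (SD, n = 2), 1.60-fold, a log2 fold change of 0.67 (standard error 0.08, 95% interval 0.50 to 0.85, limma adjusted p = 0.000764).

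*Uhrf1* (ENSMUSG00000001228, chr17:56303321-56323486, plus strand) encodes the protein that reads hemimethylated CpG sites and recruits DNMT1. Its normalized counts were 11728 and 11198 in *Pich*-KO against 7125 and 7552 in *Pich*-WT, the highest of the 8 members in every sample. Both *Pich*-KO samples were high and the groups did not overlap. The mean was 11463 ± 375 (SD, n = 2) against 7338 ± 302 (SD, n = 2), a log2 fold change of 0.64 (standard error 0.08, 95% interval 0.47 to 0.82, limma adjusted p = 0.000952). *Dnmt1* and *Uhrf1* kept nearly the same ratio in all samples. Per kilobase of gene length, the level of *Dnmt1* was 0.45 and 0.48 of that of *Uhrf1* in *Pich*-KO against 0.47 and 0.44 in *Pich*-WT, so the ranges overlapped.

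The promoters of these 2 genes are shown because both rose and both hold an E2F motif, the site of the factors that switch on genes for DNA replication. RefSeq promoter windows of GRCm38.p6, from 250 bases before a start site to 50 after it, were searched on both strands for 4 E2F words (TTTCGCGC, TTTGGCGC, TTTCCCGC and TTTGCCGC). The 8 members have 13 such windows, and 2 of them, 1 of *Dnmt1* and 1 of *Uhrf1*, held the motif, against 2.26% of 32851 windows of all genes and 9 of 24 windows of the S-phase genes described below. Capitals mark the motif, with up to 10 bases on each side, read on the strand of the gene. Positions count from +1 at the start site of the RefSeq window.
*Dnmt1* at -219, chr9:20952825-20952852, minus strand: gtttccgcgcGCGCGAAAaagccggggt
*Dnmt1* at +34, chr9:20952574-20952600, minus strand: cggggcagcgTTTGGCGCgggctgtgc
*Uhrf1* at -185, chr17:56304118-56304145, plus strand: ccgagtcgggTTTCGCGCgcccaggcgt
The match at -219 reads the first word on the opposite strand. These are matches of letters and not measured binding sites. The 2 genes were picked for display with their rise known, and whether E2F factors or replication had a part in it was not tested. *E2f1* itself, described below, had a log2 fold change of -1.73 (limma adjusted p = 0.0105). In the other 11 windows, those of *Tet2* and *Setdb1* included, none of the 4 words was found. The core of the interferon-stimulated response element, GAAA, any 2 bases and GAAA, was in 3.44% of all windows and in none of the 13. The CCAAT box and the GC box (GGGCGG) were in 37.4% and 35.7% of all windows, and in 6 and 11 of the 13. *Tet2* had the densest CpG of the 13 windows, 57 CpG in 300 bases and an observed over expected ratio of 1.17, above that of 99.2% of all windows.

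Of the partners of maintenance methylation, 12 genes were listed, of which 3 rose, 1 fell and 8 did not pass. Over all genes tested 7.58% rose and 9.6% fell, and the median log2 fold change of the list was -0.02. *Hells*, the chromatin remodeller that opens nucleosomes to DNMT1, had 2036 and 2266 normalized counts in *Pich*-KO against 928 and 891 in *Pich*-WT, or 1.24 as log2 fold change (95% interval 0.96 to 1.51, limma adjusted p = 0.000372). *Cdca7*, which recruits HELLS, rose by 0.57 on the log2 scale (limma adjusted p = 0.00307), and *Pcna*, the replication clamp that also tethers DNMT1, by 0.38 (limma adjusted p = 0.0374). In all 3 the groups were apart. Over the whole list, 4 genes had both *Pich*-KO samples above both *Pich*-WT samples and 4 had them below, against 28.9% and 27.2% of all genes. *Uhrf2*, the paralog of *Uhrf1*, went the other way, with 1359 and 1053 in *Pich*-KO against 2111 and 1918 in *Pich*-WT and a log2 fold change of -0.75 (limma adjusted p = 0.0101). *Zbtb24*, a zinc finger regulator of *Cdca7*, had a log2 fold change of -0.34 (95% interval -0.69 to 0.02) and *Usp7*, the deubiquitinase that binds DNMT1 and UHRF1, one of 0.10 (95% interval -0.40 to 0.60), and neither passed.

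The de novo writers did not pass the test, and their *Pich*-KO samples disagreed. *Dnmt3a* (ENSMUSG00000020661, chr12:3806007-3914443, plus strand) had 2496 and 1830 normalized counts in *Pich*-KO against 2321 and 2281 in *Pich*-WT. *Pich*-KO sample 1 was the highest of the 4 and sample 2 the lowest, so the groups overlapped. The mean was 2163 ± 470 (SD, n = 2) against 2301 ± 28.3 (SD, n = 2), a log2 fold change of -0.11 (standard error 0.15, 95% interval -0.45 to 0.24, limma adjusted p = 0.718). Exons of *Dnmt3a* share 133 bases with *Dnmt3aos* on the opposite strand, which had at most 2.34 normalized counts in any sample.

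*Dnmt3b* (ENSMUSG00000027478, chr2:153649450-153687730, plus strand) had 5212 and 3054 normalized counts in *Pich*-KO against 4847 and 5031 in *Pich*-WT. The pattern was that of *Dnmt3a*, with *Pich*-KO sample 1 just above and sample 2 far below the *Pich*-WT pair. The *Pich*-KO samples differed 1.71-fold and the *Pich*-WT samples 1.04-fold. The mean was 4133 ± 1526 (SD, n = 2) against 4939 ± 130 (SD, n = 2), a log2 fold change of -0.31 (standard error 0.21, 95% interval -0.80 to 0.18, limma adjusted p = 0.412). The direction of both genes turned with *Pich*-KO sample 2: without it the log2 fold change was 0.12 for *Dnmt3a* and 0.08 for *Dnmt3b*, and without *Pich*-KO sample 1 it was -0.33 and -0.69. The interval of *Dnmt3b* reaches a decrease of 0.80, so these samples leave a wide range of values for it. The ratio of the higher to the lower sample was larger in *Pich*-KO than in *Pich*-WT for 5 of the 8 members, namely *Dnmt1*, *Dnmt3a*, *Dnmt3b*, *Tet1* and *Tet3*. The share of all genes with this order was not computed, so the count is not read as a trait of the members. Across genes, the chi-square per gene between the samples of a group was 17.7 in *Pich*-KO and 9.54 in *Pich*-WT.

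Of 14 listed partners of de novo methylation, 3 rose, 2 fell and 9 did not pass, with a median log2 fold change of 0.23. The shares over all genes tested were 7.58% higher and 9.6% lower. *Setd2* and *Nsd1*, methyltransferases of H3 lysine 36 whose marks DNMT3 proteins read, rose by 0.78 (limma adjusted p = 0.0112) and 0.61 (limma adjusted p = 0.0288), and the Polycomb subunit *Eed* by 0.45 (limma adjusted p = 0.0279). *Kdm1a*, which encodes the H3K4 demethylase LSD1, had 413 and 258 normalized counts in *Pich*-KO against 1450 and 1427 in *Pich*-WT, or -2.14 as log2 fold change (95% interval -2.64 to -1.63, limma adjusted p = 0.000485). *Zfp57*, a zinc finger protein that guards imprints, had 39.3 and 37.5 against 202 and 93.0, a log2 fold change of -1.81 (limma adjusted p = 0.0148). *Dnmt3l*, the catalytically inactive partner of DNMT3A and DNMT3B in germ cells, was at 0 to 8.73 normalized counts in all samples, which is too low to compare.

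*Tet2* (ENSMUSG00000040943, chr3:133463679-133545139, minus strand) was the eraser that changed. Its normalized counts were 576 and 906 in *Pich*-KO against 306 and 189 in *Pich*-WT, from 528, 797, 392 and 189 reads. Both *Pich*-KO samples lay above both *Pich*-WT samples, but each pair was spread, 1.57-fold in *Pich*-KO and 1.62-fold in *Pich*-WT. The mean was 741 ± 233 (SD, n = 2) against 248 ± 83.0 (SD, n = 2), 2.99-fold, a log2 fold change of 1.58 (standard error 0.29, 95% interval 0.92 to 2.24, limma adjusted p = 0.007). The *Pich*-WT sample with no Y-linked reads had the lowest value, and without it the log2 fold change was 1.23. An antisense gene, *Gm42567*, shares 43 exon bases with *Tet2* and had at most 3.41 normalized counts.

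*Tet1* (ENSMUSG00000047146, chr10:62804570-62908996, minus strand) was low, with 432 and 277 normalized counts in *Pich*-KO against 320 and 280 in *Pich*-WT. *Pich*-KO sample 1 was high and sample 2 was the lowest of the 4. The mean was 355 ± 109 (SD, n = 2) against 300 ± 28.6 (SD, n = 2), a log2 fold change of 0.21 (95% interval -0.34 to 0.76, limma adjusted p = 0.636), and without *Pich*-KO sample 1 it was -0.11. *Tet3* (ENSMUSG00000034832, chr6:83362373-83459084, minus strand) had 1318 and 1166 normalized counts in *Pich*-KO against 1135 and 1146 in *Pich*-WT. The groups were just apart, with *Pich*-KO sample 2 close to the *Pich*-WT pair. Its mean was 1242 ± 107 (SD, n = 2) against 1140 ± 7.96 (SD, n = 2), a log2 fold change of 0.12 (95% interval -0.17 to 0.41, limma adjusted p = 0.595).

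**Figure D2:**
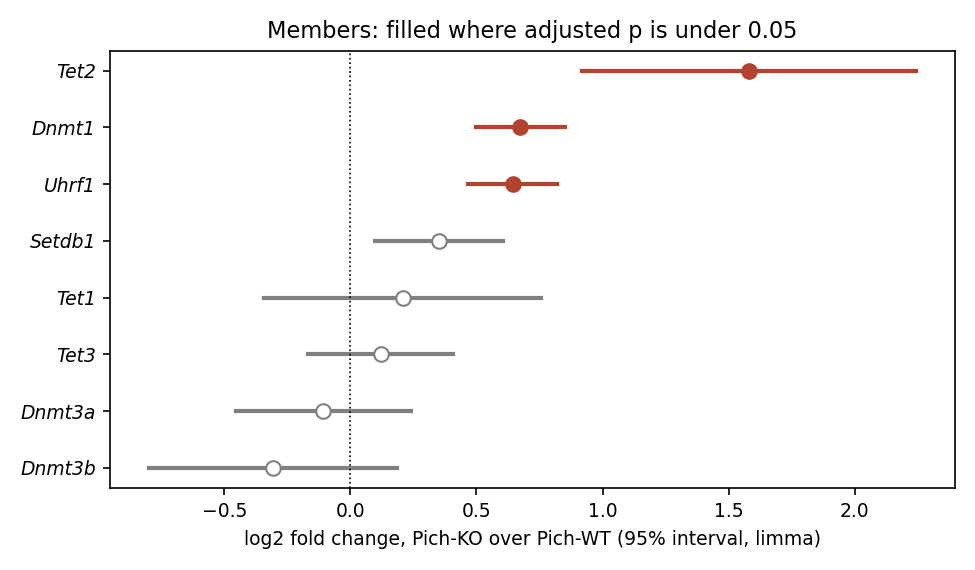
Log2 fold change of each member in *Pich*-KO over *Pich*-WT LSK cells (x axis), with its 95% interval from limma as a line and a filled point where the adjusted p was under 0.05. The intervals of *Dnmt1*, *Uhrf1* and *Tet2* lie above 0 and their points are filled, that of *Setdb1* runs from 0.10 to 0.60 without passing the adjustment, and the other 4 cross 0.

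Of 27 genes for demethylation and TET cofactors, 6 rose, 6 fell and 15 did not pass, with a median of 0.04. The shares over all genes tested were 7.58% higher and 9.6% lower. *Dcaf1*, a substrate receptor of the CRL4 ubiquitin ligase that monoubiquitinates TET proteins, had 1446 and 1215 normalized counts in *Pich*-KO against 296 and 298 in *Pich*-WT, or 2.15 as log2 fold change (95% interval 1.80 to 2.51, limma adjusted p = 0.000103). *Ogt*, the O-GlcNAc transferase that binds TET2 and TET3, rose by 0.83 (limma adjusted p = 0.00276), and *Lig3*, a ligase of base excision repair, by 1.21 (limma adjusted p = 0.000935). *Mgea5*, which encodes the enzyme that removes O-GlcNAc and was named after its value was seen, fell by 0.67 (limma adjusted p = 0.0117). Of the isocitrate dehydrogenase genes listed, which supply 2-oxoglutarate, *Idh1* fell while *Idh2* and *Idh3a* rose. Cytosolic *Idh1* had 1338 and 1736 against 2473 and 2736, a log2 fold change of -0.77 (limma adjusted p = 0.00809), and mitochondrial *Idh2* had 9146 and 8215 against 6294 and 6383, one of 0.45 (limma adjusted p = 0.0081). *Idh3a*, a subunit of the NAD-dependent mitochondrial enzyme that was named after its value was seen, rose by 0.63 (limma adjusted p = 0.00243). *Cxxc5*, a CXXC domain protein that binds TET2, had 729 and 458 against 1574 and 1738, a log2 fold change of -1.52 (limma adjusted p = 0.00207). *Neil1*, a glycosylase, fell by 0.95 (limma adjusted p = 0.026), while *Tdg*, the glycosylase that removes the oxidised bases, had a log2 fold change of 0.19 (95% interval -0.06 to 0.44) that did not pass. *Cxxc4* was at 7.96 to 28.4 normalized counts and the groups overlapped.

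*Setdb1* (ENSMUSG00000015697, chr3:95323525-95357202, minus strand) lay between the members that rose and those that did not. Its normalized counts were 1793 and 1762 in *Pich*-KO against 1368 and 1418 in *Pich*-WT. The pairs were tight and did not overlap. The mean was 1778 ± 22.0 (SD, n = 2) against 1393 ± 35.6 (SD, n = 2), 1.28-fold, a log2 fold change of 0.35 (standard error 0.11, 95% interval 0.10 to 0.60), and the adjusted p was 0.0662 by limma, which did not pass. Among the 8 alternatives this p was 0.0246 at the lowest and 0.393 at the highest, as an adjusted p. It passed in 3 of them, at 0.0255 among genes with at least 10 reads in every sample and at 0.0250 and 0.0246 with edgeR on recovered reads. Exons of *Setdb1* share 75 bases with *Cers2* on the opposite strand, and the counting is not stated to use strand. *Cers2* had 3997 to 4255 normalized counts in the 4 samples, with the *Pich*-KO values below the *Pich*-WT values. *Gm37500*, which shares 249 bases, had at most 4.

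The partners of SETDB1 and of H3K9 methylation had 31 genes, of which 11 rose, 0 fell and 20 did not pass, against 7.58% and 9.6% of all genes. At an unadjusted p under 0.05, 17 were higher and 2 lower by limma, and edgeR and DESeq2 called 0 lower as well. The median was 0.38. In 20 genes both *Pich*-KO samples lay above both *Pich*-WT samples and in 3 below, against 28.9% and 27.2% of all genes. *Setdb2*, the paralog of *Setdb1*, had 500 and 457 normalized counts in *Pich*-KO against 188 and 151 in *Pich*-WT, or 1.50 as log2 fold change (limma adjusted p = 0.00144). *Fam208b*, a relative of the HUSH subunit TASOR, rose by 1.41 (limma adjusted p = 0.00268) and *Daxx*, the histone H3.3 chaperone, by 1.33 (limma adjusted p = 0.000508). *Ehmt2*, which encodes G9a, rose by 0.45 (limma adjusted p = 0.0302). *Atf7ip*, the cofactor that stabilises SETDB1, had 2011 and 1828 against 1306 and 1616 and a log2 fold change of 0.40 that did not pass (limma adjusted p = 0.0898). *Suv39h1*, *Suv39h2* and *Ehmt1* had log2 fold changes of 0.29, 0.50 and 0.35 and did not pass. *Trim28*, the corepressor that brings SETDB1 to its targets, had 6707 and 2933 normalized counts in *Pich*-KO against 8536 and 8651 in *Pich*-WT, or -0.95 as log2 fold change (95% interval -1.67 to -0.23, limma adjusted p = 0.0783). As with *Dnmt3b*, the value of *Pich*-KO sample 2 was the lowest and the *Pich*-WT samples were close together.

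Levels of different genes were compared per length, as reads per kilobase of gene length and per 1000000 reads on genes. In *Pich*-WT the order of the mean levels was *Uhrf1* (108 ± 8.23), *Dnmt3b* (60.7 ± 3.73), *Dnmt1* (49.1 ± 1.40), *Setdb1* (12.7 ± 0.773), *Dnmt3a* (8.66 ± 0.197), *Tet3* (4.28 ± 0.180), *Tet1* (1.22 ± 0.0732) and *Tet2* (0.915 ± 0.276), SD with n = 2. In *Pich*-KO it was *Uhrf1* (162 ± 6.25), *Dnmt1* (75.1 ± 1.46), *Dnmt3b* (48.7 ± 18.2), *Setdb1* (15.6 ± 0.286), *Dnmt3a* (7.81 ± 1.75), *Tet3* (4.47 ± 0.412), *Tet2* (2.64 ± 0.816) and *Tet1* (1.38 ± 0.433). The maintenance pair and *Dnmt3b* thus stood above the other members in both groups. *Dnmt1* and *Dnmt3b* changed places, as did *Tet1* and *Tet2*. The *Tet1* and *Tet2* levels of *Pich*-WT, 1.27 and 1.16 against 1.11 and 0.720, differed by about their spread, and per length of the longest coding transcript in place of the whole exon length their order was reversed, with 1.31 for *Tet1* and 1.68 for *Tet2*. On this scale the *Tet3* levels of the groups overlapped, with 4.76 and 4.18 in *Pich*-KO against 4.15 and 4.41 in *Pich*-WT.

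**Figure D3:**
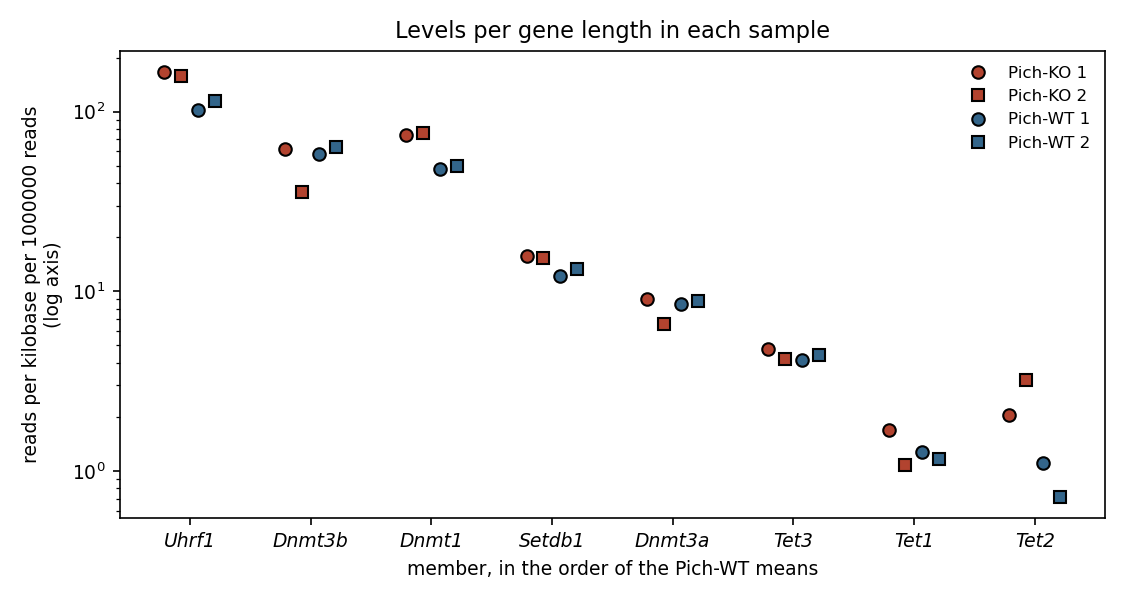
Level of each member per gene length (y axis, reads per kilobase and per 1000000 reads, log axis) in each sample, with members in the order of their *Pich*-WT means. The levels run from 0.720 for *Tet2* in *Pich*-WT sample 2 to 166 for *Uhrf1* in *Pich*-KO sample 1.

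The shares of the DNMT genes in their family did not overlap between the groups, nor did those of *Tet2* and *Tet3* in theirs. The shares were not tested. In counts of single genes, 28.9% of all genes had *Pich*-KO above and 27.2% had it below without overlap. *Dnmt1* was 51.2% and 64.3% of the summed DNMT level in *Pich*-KO samples 1 and 2 and 42.0% and 41.0% in *Pich*-WT samples 1 and 2. *Dnmt3b* was 42.6% and 30.2% against 50.6% and 51.8%, and *Dnmt3a* 6.25% and 5.55% against 7.43% and 7.21%. The groups did not overlap for any of the 3. In the TET family *Tet2* was 24.2% and 38.0% in *Pich*-KO against 17.0% and 11.4% in *Pich*-WT, and *Tet3* 56.0% and 49.4% against 63.6% and 70.1%. *Tet1* was 19.8% and 12.7% against 19.4% and 18.5%, and its groups overlapped. The ratio of *Tet2* to *Tet3* was 0.43 and 0.77 in *Pich*-KO against 0.27 and 0.16 in *Pich*-WT. The ratio of *Dnmt3b* to *Dnmt3a* was 6.81 and 5.44 against 6.81 and 7.19. Shares of a family add up to the whole, so a rise of one member lowers the share of the others.

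**Figure D4:**
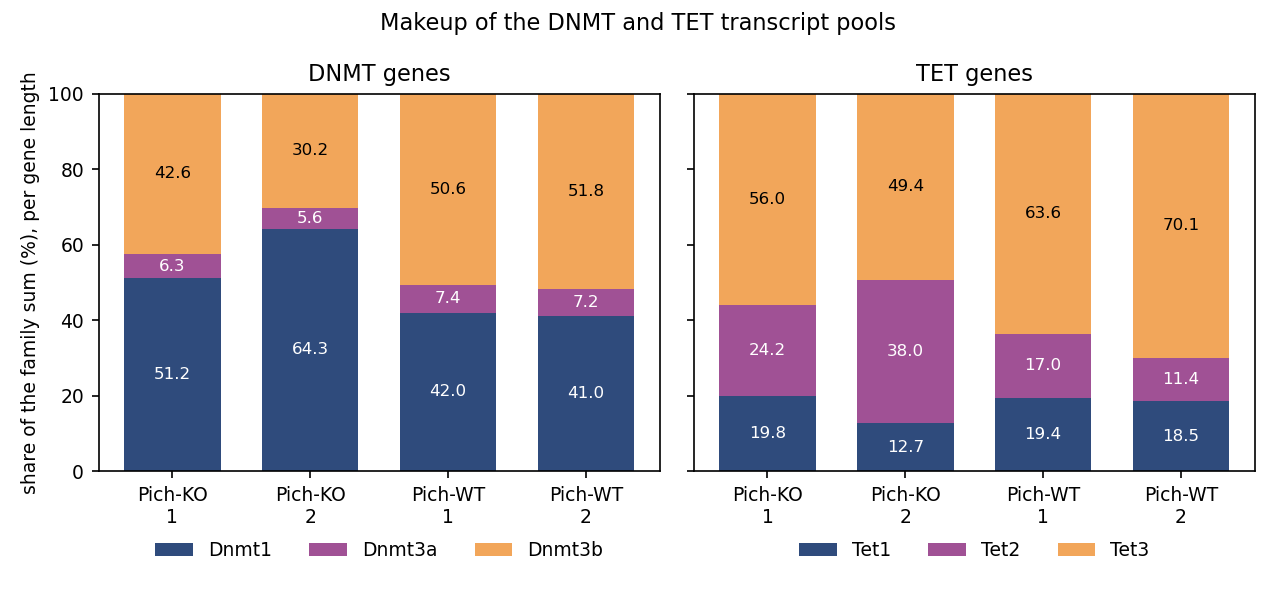
Share of the summed level per gene length (y axis, %) that each DNMT gene (left) and each TET gene (right) took in each sample. The *Dnmt1* share is 51.2% and 64.3% in *Pich*-KO against 42.0% and 41.0% in *Pich*-WT, and the *Tet2* share is 24.2% and 38.0% against 17.0% and 11.4%.

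*Dnmt1* and *Uhrf1* are transcribed most in replicating cells, so 27 genes of S phase were described beside them. Of these 13 rose, 1 fell and 13 did not pass, against 7.58% higher and 9.6% lower over all genes tested. Their median log2 fold change was 0.39. In 22 of them both *Pich*-KO samples lay above both *Pich*-WT samples and in 1 below, against 28.9% and 27.2% of all genes. *Pola1*, the catalytic subunit of the primase-polymerase, had 2015 and 2037 normalized counts in *Pich*-KO against 599 and 503 in *Pich*-WT, or 1.88 as log2 fold change (95% interval 1.57 to 2.20, limma adjusted p = 0.000112). *Mcm10*, a replication initiation factor, rose by 0.74 (limma adjusted p = 0.00245) and *Ccne1*, which encodes cyclin E1, by 0.63 (limma adjusted p = 0.0091). The helicase subunits *Mcm2*, *Mcm3*, *Mcm5*, *Mcm6* and *Mcm7*, named after their values were seen, rose by 0.31 to 0.47, which is less than the 0.67 of *Dnmt1* and the 0.64 of *Uhrf1*, and the difference between them was not tested. *Mcm4*, the remaining subunit of this helicase, had a log2 fold change of 0.24 (95% interval 0.06 to 0.43) and did not pass (limma adjusted p = 0.0771). *E2f1*, the transcription factor, had 673 and 283 against 1538 and 1374, a log2 fold change of -1.73 (limma adjusted p = 0.0105), and was the member of this list that fell.

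DNMT and SETDB1 enzymes draw their methyl group from S-adenosylmethionine. Of 21 genes that supply it or recycle its product, 10 rose, 3 fell and 8 did not pass, with a median of 0.45. The shares over all genes tested were 7.58% higher and 9.6% lower. *Mat2a*, the S-adenosylmethionine synthetase of extrahepatic cells, had 8678 and 9734 normalized counts in *Pich*-KO against 6329 and 6252 in *Pich*-WT, or 0.55 as log2 fold change (limma adjusted p = 0.0035). *Ahcy*, which removes the inhibitory product S-adenosylhomocysteine, had 2885 and 3281 against 1509 and 1481, a log2 fold change of 1.04 (95% interval 0.78 to 1.30, limma adjusted p = 0.000591). The folate enzymes *Shmt1* and *Mthfd2* both rose by 1.10 (limma adjusted p = 0.000293 and 0.00126). *Slc43a2*, an amino acid transporter that carries methionine, fell by 1.70 (limma adjusted p = 0.000173), *Ahcyl2*, a relative of *Ahcy*, by 1.04 (limma adjusted p = 0.0121), and *Bhmt*, the betaine methyltransferase of liver, by 2.03 from 34.4 and 39.0 normalized counts to 9.82 and 6.82 (limma adjusted p = 0.0177).

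Of 17 methyl-CpG readers and their complexes, 3 rose, 4 fell and 10 did not pass, with a median of 0.14. The shares over all genes tested were 7.58% higher and 9.6% lower. *Mbd3*, a subunit of the NuRD complex, rose by 0.44 (limma adjusted p = 0.0133), as did the NuRD remodeller *Chd4* by 0.79 (limma adjusted p = 0.0029) and the NuRD subunit *Gatad2b* by 0.81 (limma adjusted p = 0.0146). *Zbtb4* and *Zbtb38*, zinc finger proteins that bind methylated DNA, fell by 1.92 (limma adjusted p = 0.00446) and 0.78 (limma adjusted p = 0.0204), and the corepressor *Ncor1* by 1.15 (limma adjusted p = 0.00103). *Mbd1*, *Mbd2* and *Mbd4*, of the methyl-CpG binding domain family, did not pass, at log2 fold changes of -0.07, 0.14 and 0.12 with 95% intervals that reach from -0.42 to 0.69 in the widest case, that of *Mbd2*. *Mbd5* and *Mbd6*, of the same family and named after their values were seen, did not pass either, at 0.70 (95% interval 0.23 to 1.17, limma adjusted p = 0.0518) and 0.03 (limma adjusted p = 0.917).

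**Figure D5:**
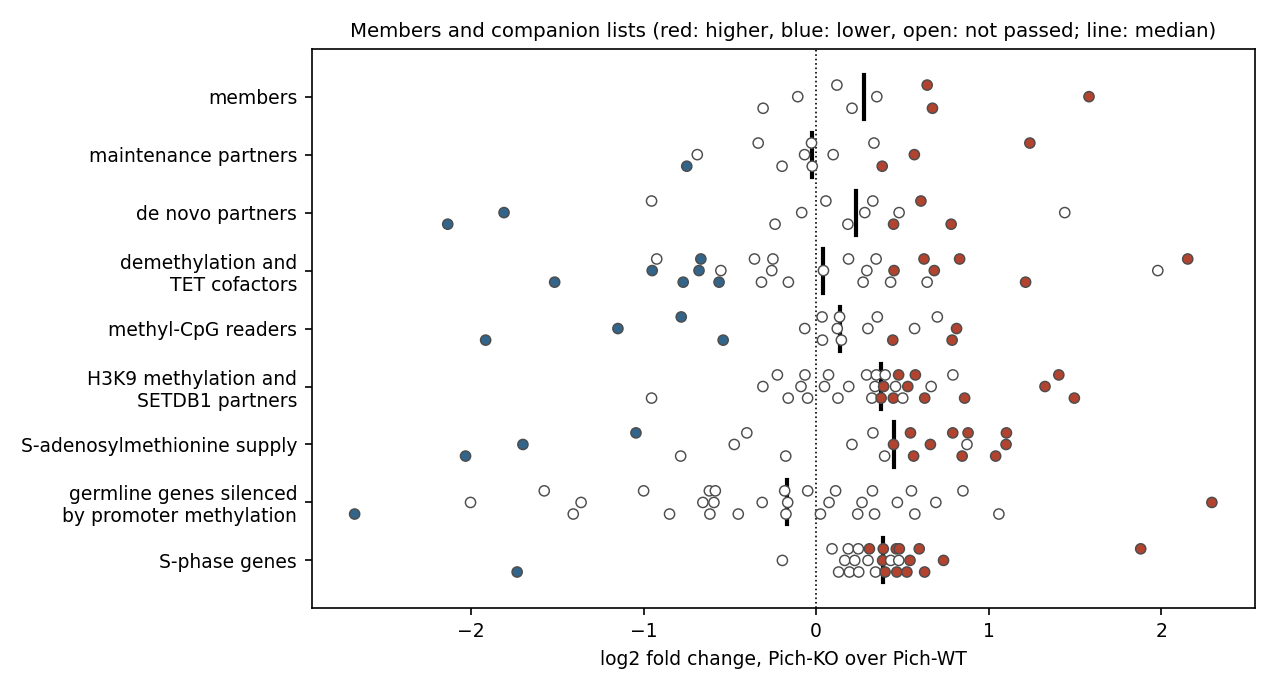
Log2 fold change in *Pich*-KO over *Pich*-WT (x axis) of the 8 members and of the tested genes of 8 companion lists, red where higher and blue where lower past the threshold, open where not, with a line at each median. The medians run from -0.17 for the germline genes to 0.45 for S-adenosylmethionine supply, with 0.28 for the members.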

How the data were processed

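Libraries of sorted fetal liver LSK cells, 2 of *Pich*-KO and 2 of *Pich*-WT, were made with a TruSeq RNA kit. The authors deposited 1 table whose sample values are a signal of normalized counts, that is reads on each Ensembl gene divided by a size factor for its sample. Its other columns, with group means and the authors' own fold changes and p-values, were not used. The submitters' processing notes name Bowtie 0.12.2 and the builds mm8 and mm9. The start and end of 97.8% of the 39131 genes found in GENCODE M21 were the same on GRCm38, which is the build given here. The deposited gene length equalled the union of exons in GENCODE M21 for 97.4%. The counter and its strand setting are not given in the sources used here.

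The steps between values gave back the reads, and 100% of values were whole within 0.01 of a read in all 4 samples, which gave the depth. Between the samples of a group the chi-square per gene was 17.7 (*Pich*-KO) and 9.54 (*Pich*-WT), more than sampling noise, and each sample was counted as 1 replicate. limma 3.58.1 in R 4.3.3 was fitted to log2(value + 1) with eBayes and its mean-variance trend, over genes with a mean of at least 1. Its procedure was run on simulated counts in which all genes had the same dispersion. These samples differ from that setting, so the run does not check the calls made here. Alternatives were a pseudocount of 0.1, no filter, at least 10 reads in every sample, a replicate block, no variance trend, edgeR 4.0.16 (quasi-likelihood, TMM or upper quartile scaling) and DESeq2 1.42.0 on the recovered reads, and leaving out each sample. edgeR tested 16608 genes, called 3097 higher and 3436 lower, and was not the main test because the deposited values are normalized.

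Named genes are the 8 members, *Ercc6l*, 25 core partners and, in each companion list, up to 3 genes with the largest and 3 with the smallest log2 fold change past the threshold. The members, the 8 companion lists and the 6 marker lists were chosen with earlier results of these data known, and 2 listed genes are not reported here. Promoter windows are from RefSeq (GRCm38.p6), and all 8 members were matched.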

Additional observations from a re-analysis of the deposited data

How the results depend on the processing

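The higher level of *Dnmt1*, *Uhrf1* and *Tet2* held its direction in all 8 alternatives and in the 4 fits that leave out a sample, and held its call in 7 of the 8. Without a variance trend 0 genes were higher and 0 lower by limma (7377 at an unadjusted p under 0.05) and 0 members passed, at unchanged log2 fold changes of 0.67, 0.64 and 1.58. The log2 fold change of *Setdb1* passed with at least 10 reads in every sample (0.35), with edgeR and TMM (0.37) and with edgeR and upper quartile scaling (0.38), which makes 4 members. Leaving out 1 sample, where the lone sample is assumed to vary like the other group, gave 0 calls in every fit, against 5757 to 8599 genes at an unadjusted p under 0.05. These fits ranged from 0.65 to 0.70 for *Dnmt1*, 0.60 to 0.69 for *Uhrf1* and 1.23 to 1.93 for *Tet2*, and changed sign for *Dnmt3a* (-0.33 to 0.12), *Dnmt3b* (-0.69 to 0.078), *Tet1* (-0.11 to 0.53), *Cxxc4* (-1.11 to 0.60), *Dnmt3l* (-0.13 to 3.01), *Mbd1* (-0.16 to 0.030), *Mbd2* (-0.018 to 0.29), *Mbd6* (-0.097 to 0.17), *Cd34* (-0.52 to 0.36) and *Usp7* (-0.20 to 0.40). With upper quartile scaling the log2 fold change of *Cxxc4* was 5.8e-06, against -0.26, and that of *Cd34* 0.012, or 0.0038 with edgeR and TMM, against -0.081. Same-numbered samples of the groups did not deviate together in their values (correlation 0.012 over 11794 genes), and the labels do not say whether they are paired. The replicate block called 3122 genes higher and 3874 lower and the same count of 3 members. With the block *Dnmt3b* was at an adjusted p of 0.0682 and *Trim28*, which did not pass without it, at 2.4e-08 by limma. Beside the fits with 0 calls, counts of 2 or more in the companion lists that moved by over 1.5 times were, as higher genes, de novo partners from 3 to 1 with no filter and to 5 with edgeR or at least 10 reads, demethylation and TET cofactors from 6 to 10 or 11 with edgeR and 10 with the block, and methyl-CpG readers from 3 to 5 with DESeq2 or the block and 7 with edgeR or at least 10 reads. As lower genes, they were de novo partners from 2 to 1 and readers from 4 to 2 with no filter, and LSK markers from 3 to 6 with the block. Counts of 0 or 1 moved by at most 1, and among these the lower genes of the H3K9 list went from 0 to 1 with at least 10 reads or the block. *E2f1*, *Pcna*, *Nsd1*, *Eed*, *Ehmt2*, *Zfp57*, *Zbtb38*, *Slamf1* and *Dmrtb1* did not pass with no filter, nor *Mcm2* with DESeq2, while *Mcm4* passed with edgeR and *Mbd5* with edgeR, DESeq2, at least 10 reads or the block. The other counts of genes higher ran from 1840 with no filter to 3165 with upper quartile scaling. Beyond the cases named, the cause of a change was not tested. With 2 samples per group, a change as wide as the intervals of *Dnmt3a*, *Dnmt3b* and *Tet1* cannot be told from none.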

Other observations

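Among genes of the germline that promoter methylation keeps silent in somatic cells, 33 of the 34 matched had at most 75.0 normalized counts in any sample, and *Ddx4* had more in *Pich*-WT. Of 36 listed genes, 34 were matched, 32 had a mean of at least 1 and were tested, 1 rose, 1 fell and 30 did not pass by limma with Benjamini-Hochberg adjustment. The median log2 fold change was -0.17, and over all genes tested 7.58% were higher and 9.6% lower. *Dmrtb1*, a transcription factor of spermatogonia, had 36.0 and 20.5 normalized counts in *Pich*-KO against 3.13 and 7 in *Pich*-WT, or 2.29 as log2 fold change (95% interval 0.94 to 3.65, limma adjusted p = 0.0311). It did not pass with a pseudocount of 0.1 (limma adjusted p = 0.0538), with no filter (0.0725) or without a variance trend (0.142), and was not among the genes with at least 10 reads in every sample. *Ddx4*, the germ cell helicase also called VASA, had 72.0 and 35.2 against 285 and 376, a log2 fold change of -2.68 (95% interval -3.49 to -1.86, limma adjusted p = 0.00157). *Nanog* and *Rpl10l* were not analysed here.

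Of 10 markers of LSK and stem cells, 1 rose, 3 fell and 6 did not pass, with a median log2 fold change of -0.55. The shares over all genes tested were 7.58% higher and 9.6% lower. *Ly6a* had 3586 and 2978 normalized counts in *Pich*-KO against 901 and 1061 in *Pich*-WT, or 1.74 as log2 fold change (limma adjusted p = 0.000167). *Hlf* and *Mecom*, transcription factors of stem cells, fell by 2.37 (limma adjusted p = 0.0012) and 2.10 (limma adjusted p = 0.000748), and *Slamf1*, which encodes CD150, by 0.90 (limma adjusted p = 0.0445). *Pich*-KO sample 2, which was the lowest of the 4 samples for *Dnmt3a*, *Dnmt3b* and *Trim28*, was also the lowest for *Hlf*, *Mecom* and *Cd34*, the last named after its value was seen, with 6226 normalized counts of *Cd34* against 8901 to 11424 in the other samples.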
